A study of Mus musculus with 40 samples.

Results

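The genes described here encode the cytokines IL-1α, IL-1β, IL-18 and TNF together with proteins that receive or restrain them. They were chosen by symbol, with earlier results of these data known. All 10 (Il1a, Il1b, Il18, Tnf, Il1rn, Il1r1, Il1r2, Il18r1, Tnfrsf1b and Tnfaip3) were found once each among the 14318 genes measured by RNA-sequencing in 39 primary tumors. The tumors grew in WT female BALB/c mice after intraductal inoculation of 4T1-luc or 66cl4-luc cells, mammary tumor lines of the mouse that express luciferase and serve to model triple-negative breast cancer (TNBC), and they were collected at 5 w p.i. In each model, mice were mated at 8 w of age, were lactating at inoculation and were left untreated or received i.p. anti-PD-1 (200 µg of clone RMP1-14), chitin (1 mg of shrimp-derived particles) or chitin + anti-PD-1. Each of the 8 groups held 5 tumors, apart from untreated 4T1 with 4, for a total of 19 tumors in the 4T1- and 20 in the 66cl4-based model. Mice were caged individually and each was inoculated in a pair of mammary glands, but the labels do not tie each tumor to its own mouse. Tumors of a group may thus share a mouse. The p-values treat the tumors as independent and measure the spread between these samples. Each model rests on 1 cell line with its own inoculated cell number, and the model, the line and this number cannot be told apart.

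IL-1α and IL-1β are alarm cytokines that bind the same signalling receptor, IL-1R1, and lead through MyD88 to NF-κB. Their action is limited by the receptor antagonist IL-1RA, encoded by Il1rn, and by the decoy receptor IL-1R2, which binds the cytokine without signalling. IL-1β and IL-18 are made as precursors that caspase-1 cleaves in inflammasomes, and mRNA levels do not measure the active cytokine. TNF acts on TNFR1 and on TNFR2, encoded by Tnfrsf1b, and A20, encoded by Tnfaip3, is a feedback inhibitor of NF-κB signalling downstream of IL-1 and TNF receptors. In mammary tumors, myeloid cells are a main source of IL-1β and TNF, while IL-1α is also made by epithelial cells and IL-18R1 is found on T cells and NK cells.

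Of the 4 receptor genes, 3 lie in 1 stretch of chromosome 1 of mm10, with Il1r2 from 40084692 to 40125230, Il1r1 from 40222480 to 40316201 and Il18r1 from 40465552 to 40500854, all on the plus strand (GENCODE vM21). On chromosome 2, Il1a (129299609 to 129310186) and Il1b (129364569 to 129371164) are neighbours on the minus strand, and Il1rn lies apart from them (24336860 to 24351491, plus strand). Tnf is on chromosome 17 (35199367 to 35202007, minus strand), Il18 on chromosome 9 (50554700 to 50581841, plus strand), Tnfrsf1b on chromosome 4 (145212368 to 145246870, minus strand) and Tnfaip3 on chromosome 10 (19000910 to 19015410, minus strand). Genes on the opposite strand overlap Il1a (Gm14023), Il1b (Il1bos), Il1r2 (Gm16894) and Il18 (Bco2 and Tex12). The libraries were stranded and reads were counted with strand, which separates such pairs as far as the strand marking works. Il1r1 and Il1r2 also overlap short loci on their own strand (Gm38070 and Gm37347), from which reads cannot be separated in this way.

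The upstream sequences of Il1a, Il1b, Il1rn and Tnfaip3, each of which was part of a pair that varied together across 4T1 tumors (described below, with the pairs that did not), are given here, as the 250 bases before the first transcript start that RefSeq lists for GRCm38.p6, the assembly behind mm10. These starts can differ from the gene ends above, which come from GENCODE. Each is written 5′ to 3′ on the strand of the gene, and capitals mark matches to 3 motifs, namely the TATA box (TATAAA), the AP-1 site (TGANTCA) and the κB site (in its usual consensus), which is bound by NF-κB. The motifs were searched on both strands, and TGANTCA reads the same on both.
Il1a, chr2:129309973-129310222, minus strand: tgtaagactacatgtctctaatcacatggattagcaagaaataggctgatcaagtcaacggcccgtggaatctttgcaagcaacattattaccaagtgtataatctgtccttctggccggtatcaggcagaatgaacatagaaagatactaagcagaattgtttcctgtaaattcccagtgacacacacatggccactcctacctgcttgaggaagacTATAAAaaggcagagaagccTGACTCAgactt
Il1b, chr2:129371140-129371389, minus strand: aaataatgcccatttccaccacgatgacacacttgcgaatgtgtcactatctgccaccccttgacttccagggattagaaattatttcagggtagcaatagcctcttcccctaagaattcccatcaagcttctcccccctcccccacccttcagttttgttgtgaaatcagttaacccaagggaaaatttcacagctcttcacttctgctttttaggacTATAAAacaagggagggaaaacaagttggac
Il1rn, chr2:24336610-24336859, plus strand: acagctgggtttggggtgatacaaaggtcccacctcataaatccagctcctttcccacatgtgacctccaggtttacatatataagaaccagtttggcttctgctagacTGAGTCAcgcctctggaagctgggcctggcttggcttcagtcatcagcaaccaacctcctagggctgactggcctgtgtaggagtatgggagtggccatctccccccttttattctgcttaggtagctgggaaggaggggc
Tnfaip3, chr10:19015411-19015660, minus strand: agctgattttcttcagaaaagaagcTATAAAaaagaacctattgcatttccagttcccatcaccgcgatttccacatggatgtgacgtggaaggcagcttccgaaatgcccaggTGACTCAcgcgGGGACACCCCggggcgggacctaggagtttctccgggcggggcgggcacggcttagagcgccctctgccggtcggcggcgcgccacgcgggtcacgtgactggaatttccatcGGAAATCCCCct
Il1a held TATAAA starting 32 bases and TGANTCA 12 bases before the start, and Il1b held TATAAA 31 bases before it. Il1rn held TGANTCA at 141 bases. Tnfaip3 held TATAAA at 225 bases, TGANTCA at 136 bases, a κB match at 125 bases and another on the opposite strand at 12 bases before the start. Tnf, on chr17, held TATAAA at 29 bases. Of 32851 promoter windows of the same length, 12.4% held TATAAA anywhere, 1.99% held it on the strand of the gene between 20 and 40 bases before the start, 6.75% held TGANTCA and 3.9% held the κB consensus. Il18, on chr9, held TATAAA on the opposite strand at 175 bases. The windows of Il1r1, Il1r2, Il18r1 and Tnfrsf1b that end at the first listed start held no match. Another listed window of Il1r1 held a κB match on the opposite strand, 232 bases before its start. A match describes the sequence and was not tested as a binding site.

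The depth was 5105898 to 14800352 reads in genes for each tumor (median 6590274). The deposited values are on a log2-like scale made with the variance stabilizing transformation of DESeq2, on which a count of 0 has the value 6.051 and differences between low counts are flattened. They could be turned back exactly into reads, so that levels are also given as normalized counts, meaning reads after division by a size factor for depth. The reads per tumor behind a value ran from 4 for Il18r1 in 1 4T1 tumor to 2922 for Il1b in another, and the lowest numbers were 5 for Il1a and 6 for Il1r2 and Il18r1 in 66cl4 and 7 for Tnf in 4T1, which carry a large counting error.
The 66cl4 tumors had little RNA of several epithelial genes. Epcam was between 1.12 and 123 normalized counts in 66cl4 and between 1958 and 10397 in 4T1 tumors, and Cdh1 was between 10.1 and 107 and between 1060.5 and 5845, whereas Krt8 was between 3152 and 5709 in 66cl4 tumors. In bulk tumors, fewer cells of a type and less RNA per cell cannot be told apart.

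**Figure D1:**
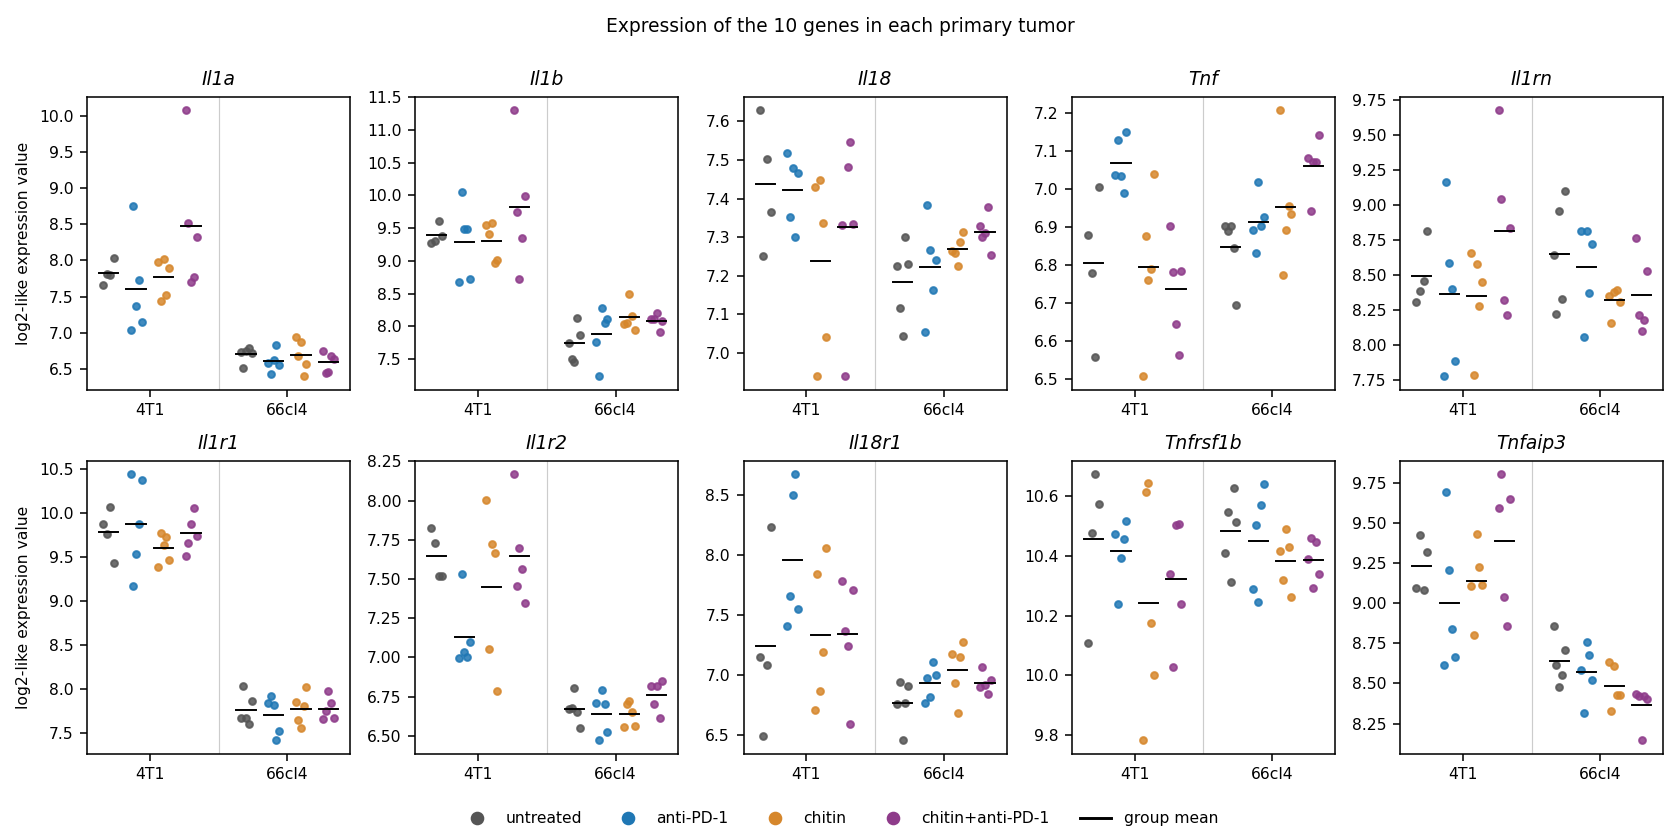
Expression of each gene on the log2-like scale (y axis, scaled separately for each gene) in every primary tumor of the 4T1- (left, n = 19) and 66cl4-based model (right, n = 20). Points are tumors, colors are treatments and lines are group means. Il1a, Il1b and Il1r1 were higher in all 4T1 than in all 66cl4 tumors, and the SD within groups, pooled over the 4 treatments, was larger in 4T1 for all 10 genes.

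To compare levels between genes, normalized counts were divided by the merged exon length of each gene. In 4T1 tumors, Il1b and Tnfrsf1b were the most abundant per length, at 340.0 ± 240.5 and 314 ± 55.8 normalized counts per kb (SD, n = 19), with medians of 293 and 334 in the opposite order, followed by Il1r1 at 119.5 ± 33. In 66cl4 tumors, Tnfrsf1b was highest at 328 ± 30.2 (SD, n = 20), followed by Il1b at 73.3 ± 23.7 and Il18 at 47.1 ± 7.39. Tnf and Il18r1 were the lowest of the 10 genes in 4T1 tumors, at 13.6 ± 6.25 and 18.5 ± 16.3 normalized counts per kb, with medians of 13.5 and 13.1, and Il18r1 was the lowest in 66cl4 tumors, at 5.43 ± 2.27. Per length, Il1b thus exceeded Tnf in both models, and the gene for the antagonist, Il1rn, was at 47.7 ± 24.9 in 4T1 and 43.8 ± 14.1 in 66cl4 tumors.

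First, the models were compared over the means of their 4 treatment groups, which asks which of these genes distinguish the 4T1- from the 66cl4-based tumors. The signalling receptor Il1r1 and the ligands Il1a and Il1b were higher in 4T1 tumors, as were the decoy receptor Il1r2, the feedback inhibitor Tnfaip3, Il18r1 and, by a small amount, Il18. Tnf was slightly lower, and Il1rn and Tnfrsf1b did not pass the test. Thus 8 of the 10 genes passed an adjusted p of 0.05 with limma, 7 of them higher and 1 lower in 4T1, where the background over all 14318 genes was 78.8% (40.8% higher and 38% lower). Their median difference was 0.61 on the log2-like scale, and it was 0.015 over all genes. The median size of the difference regardless of its sign was 0.61 for the 10 genes and 0.28 for all genes.
For Il1a, Il1b and Il1r1, every 4T1 tumor lay above every 66cl4 tumor, which was the case for 9.87% of all genes, while for 7.98% every 4T1 tumor lay below every 66cl4 tumor.

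Il1r1 was at a median of 731 normalized counts (range 451 to 1263) in 4T1 tumors and at a median of 107 normalized counts (range 63.8 to 146) in 66cl4 tumors. The ratio of the means was 7.23, and it was between 6.06 and 8.77 within the 4 treatments. On the log2-like scale the difference was 2.01 (standard error 0.0825, adjusted p = 1.11e-21, limma), which placed it 302nd in size among the 14318 genes. The groups of each treatment were separate for this gene in all 4 treatments.
Il1b was at a median of 558 normalized counts (range 288 to 2389.8) in 4T1 tumors and at a median of 149.9 normalized counts (range 47.4 to 241) in 66cl4 tumors, a ratio of means of 4.64 and a difference of 1.49 (standard error 0.142, adjusted p = 1.36e-11, limma). Within treatments the ratio ran from 3.07 to 6.21.
Il1a was at a median of 110.2 normalized counts (range 32.1 to 947) in 4T1 tumors and at a median of 12 normalized counts (range 3.93 to 26) in 66cl4 tumors. The ratio of the means was 13.4, and it ran from 7.43 to 31.8 within treatments. The highest of these came from the chitin + anti-PD-1 groups, where 1 4T1 tumor was at 947. The difference on the log2-like scale was 1.27 (standard error 0.138, adjusted p = 3.17e-10, limma) and 1.17 without this tumor. On the recovered reads, limma-voom, which does not flatten low counts in this way, gave log2 differences of 3.40 for Il1a, 2.11 for Il1b and 2.84 for Il1r1.

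Among the proteins that restrain IL-1 and TNF signalling, the decoy receptor Il1r2 was at a median of 74.7 normalized counts (range 17.5 to 170.1) in 4T1 tumors and at a median of 13.2 normalized counts (range 5.68 to 20.8) in 66cl4 tumors. The ranges overlapped, but 18 of the 19 4T1 tumors lay above all 66cl4 tumors, and the difference was 0.79 (standard error 0.0766, adjusted p = 2.12e-11, limma). The log2-like scale flattens differences between such low counts, and the ratio of the means was 5.71 for Il1r2, against 4.64 for Il1b. Tnfaip3 was at a median of 430.0 normalized counts (range 271 to 767) in 4T1 tumors and at a median of 241 normalized counts (range 166 to 342) in 66cl4 tumors, with 14 of 19 4T1 tumors above all 66cl4 tumors. It differed by 0.67 (standard error 0.081, adjusted p = 3.03e-09, limma), at a ratio of means of 1.92.
The antagonist Il1rn was the exception within the IL-1 genes. It was at a median of 229 normalized counts (range 107 to 692) in 4T1 tumors and at a median of 213 normalized counts (range 149.7 to 424) in 66cl4 tumors. The difference was 0.036 (standard error 0.119, adjusted p = 0.787, limma), with a 95% confidence interval of -0.21 to 0.28, and its sign turned with tumor weights (-0.10) and without 4T1 chitin + anti-PD-1 tumor 1 (-0.018) or 4T1 anti-PD-1 tumor 2 (-0.014).
With the agonists higher and the antagonist not past the test, the ratio of Il1b to Il1rn, both per length, was between 4.31 and 14.96 (median 7.03) in 4T1 tumors and between 0.525 and 3.27 (median 1.87) in 66cl4 tumors. The ratio of Il1a to Il1rn was between 0.64 and 3.84 in 4T1 and between 0.0508 and 0.35 in 66cl4 tumors. Neither ratio overlapped between the models. The ratio of Il1r1 to its decoy Il1r2 did overlap, with medians of 3.02 and 2.22. The size of each ratio depends on the merged exon lengths (1.907 kb for Il1b and 5.535 kb for Il1rn), which are the same in both models. Without division by length, the means in 66cl4 tumors were 139.8 normalized counts for Il1b and 242.7 for Il1rn. All these ratios were formed after the values had been seen and are descriptions with no test.

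**Figure D2:**
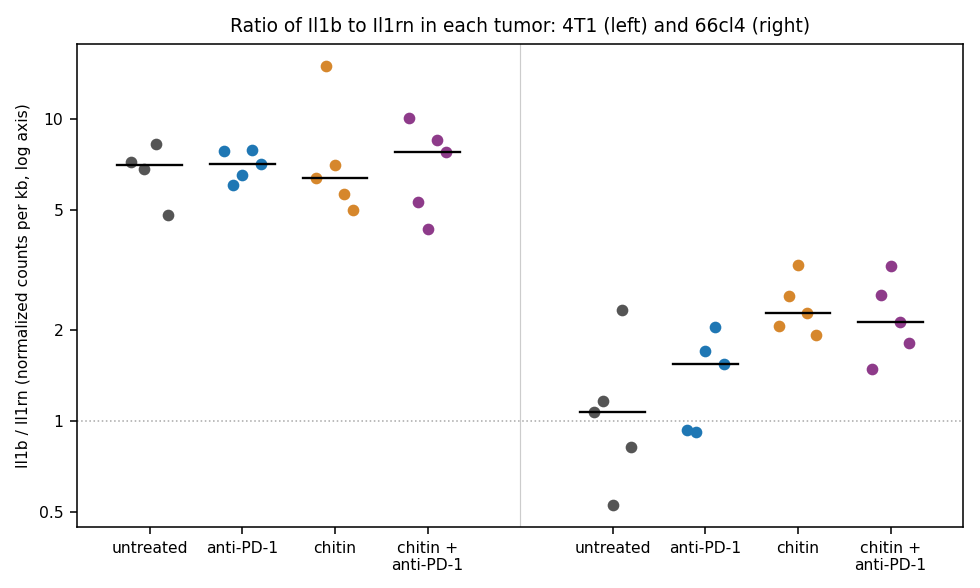
Ratio of Il1b to Il1rn, each in normalized counts per kb of merged exons (y axis, log scale), in every primary tumor by treatment group, with 4T1 on the left and 66cl4 on the right. Points are tumors and lines are group medians. All 4T1 tumors lie between 4.31 and 14.96 and all 66cl4 tumors between 0.525 and 3.27.

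On the log2-like scale, which flattens differences between low counts, Il18r1, Il18, Tnf and Tnfrsf1b differed less. In normalized counts, the ratio of the means was 3.41 for Il18r1, against 1.92 for Tnfaip3. Il18r1 was at a median of 63 normalized counts (range 6.25 to 287) in 4T1 tumors and at a median of 25.3 normalized counts (range 5.28 to 50.5) in 66cl4 tumors, with 11 of 19 4T1 tumors above all 66cl4 tumors and a difference of 0.55 (standard error 0.132, adjusted p = 0.000346, limma). Il18 was at a median of 59 normalized counts (range 25.9 to 87.5) in 4T1 tumors and at a median of 49.4 normalized counts (range 32.5 to 60.6) in 66cl4 tumors. Its difference of 0.11 (standard error 0.0473, adjusted p = 0.035, limma) was no longer past the threshold with median centring (0.085) or at equal read depth (0.084), and it was -0.0074 after quantile normalization. The call was also lost when any of 10 single tumors was left out, with differences down to 0.093 without 4T1 untreated tumor 1. Tnf was at a median of 22.2 normalized counts (range 6.64 to 40.5) in 4T1 tumors and at a median of 24.4 normalized counts (range 13.3 to 44.9) in 66cl4 tumors. Its difference of -0.093 (standard error 0.0424, adjusted p = 0.0454, limma) lost the call at equal read depth (-0.085) and when any of 23 single tumors was left out, with a difference of -0.072 without 4T1 untreated tumor 4. Tnfrsf1b was at a median of 1276 normalized counts (range 753 to 1504) in 4T1 tumors and at a median of 1244 normalized counts (range 1086 to 1468) in 66cl4 tumors, and its difference was -0.066 (standard error 0.0619, adjusted p = 0.33, limma), with a 95% confidence interval of -0.19 to 0.06.

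Untreated tumors alone were then compared, which share their values with the comparison above. Here 6 of the 10 genes passed, all higher in 4T1, against a background of 55.8% (28.7% higher and 27.1% lower). Il1r1 differed by 2.02 (standard error 0.172, adjusted p = 5e-12, limma), Il1b by 1.65 (standard error 0.296, adjusted p = 1.56e-05, limma) and Il1a by 1.13 (standard error 0.289, adjusted p = 0.0013, limma). The 4 untreated 4T1 tumors were at 92.2, 113, 110.2 and 145 normalized counts of Il1a (tumors 1, 2, 4 and 5), and the 5 untreated 66cl4 tumors were at 15, 6.88, 15.8, 18 and 14.7. For Il1b, the values were 493, 505, 658 and 540.0 in 4T1 and 103, 72.2, 67.7, 162 and 120.1 in 66cl4 tumors. For both ligands, all untreated 4T1 tumors lay above all untreated 66cl4 tumors, as did Il1r1, Il1r2 and Tnfaip3, where 43.1% of all genes had separate groups (22.3% higher and 20.7% lower in 4T1).
Il1r2 differed by 0.98 (standard error 0.16, adjusted p = 3.99e-06, limma) and Tnfaip3 by 0.59 (standard error 0.169, adjusted p = 0.00362, limma). Il18 differed by 0.25 (standard error 0.0988, adjusted p = 0.0285, limma), a call lost with median centring, after quantile normalization and without 4T1 untreated tumor 1 (0.19) or 4 (0.23) or 66cl4 untreated tumor 2 (0.24) or 3 (0.22).
Il18r1 differed by 0.47 (standard error 0.275, adjusted p = 0.144, limma). Its 4 values in 4T1 tumors were 40.2, 6.25, 35.5 and 183, so that tumor 2 lay near the 66cl4 tumors, and without this tumor the difference was 0.72 (adjusted p = 0.0327, limma). Il1rn, Tnf and Tnfrsf1b differed by -0.16, -0.041 and -0.024 (adjusted p = 0.612, 0.714 and 0.885, limma), and the sign of the last 2 turned at equal read depth and when single tumors were left out.

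**Figure D3:**
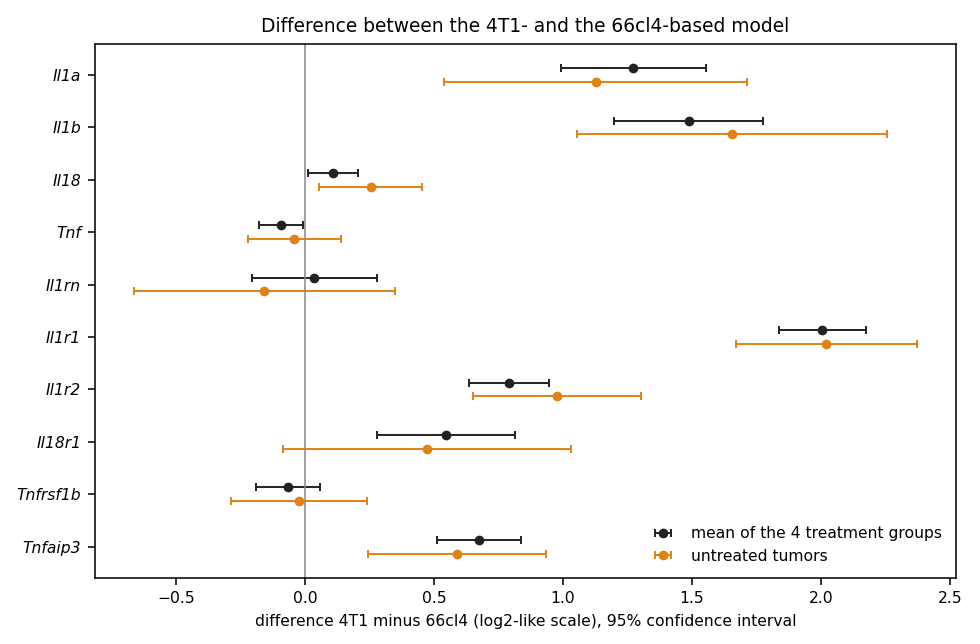
Difference between 4T1 and 66cl4 tumors for each gene on the log2-like scale (x axis), over the means of the 4 treatment groups (black) and in untreated tumors (orange). Points are limma estimates and bars their 95% confidence intervals. The intervals of Il1a, Il1b, Il1r1, Il1r2, Tnfaip3 and Il18 lie above 0 in both comparisons and those of Il1rn and Tnfrsf1b include 0 in both.

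Other genes of the same pathways were read from lists that do not hold the 10 genes. Of the 5 other IL-1 family receptors measured, 3 were higher and 2 lower in 4T1 over the 4 treatments. The receptor of IL-33, Il1rl1, was lower, with a difference of -4.12 (standard error 0.122, adjusted p = 6.3e-26, limma), and Il18rap, which encodes the second chain of the IL-18 receptor, differed by -1.0002 (standard error 0.136, adjusted p = 4.1e-08, limma), opposite in direction to Il18r1. Of the 3 other ligands and binding proteins measured, all 3 were higher, among them Il18bp, which binds and neutralizes IL-18 (0.78, standard error 0.1004, adjusted p = 1.5e-08, limma), and Il33 (0.59, standard error 0.246, adjusted p = 0.0286, limma).
Of 11 genes of inflammasomes and cytokine processing, 6 were higher and 3 lower in 4T1. Casp1, which encodes the protease that cleaves IL-1β and IL-18, differed by 1.08 (standard error 0.107, adjusted p = 3.3e-11, limma). Of 12 genes of IL-1 receptor signalling, 3 were higher and 6 lower. Of 15 genes of TNF ligands, receptors and signalling, 9 were higher and 3 lower, with medians of -0.070 and 0.18 for these lists. Of 22 genes of NF-κB subunits and feedback inhibitors, 8 were higher and 6 lower with a median difference of 0.055, and Nfkb2 differed by -0.98 (standard error 0.0640, adjusted p = 7.4e-16, limma). Against backgrounds of 40.8% and 38% of all genes, these counts are given as descriptions.

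Markers of cell types moved with the model too. Of 9 neutrophil markers, 7 were higher and 1 lower in 4T1, and their summed level was between 1368 and 10946 normalized counts in 4T1 and between 1118 and 3032 in 66cl4 tumors. This sum had medians of 3005 normalized counts in 4T1 and 1921 in 66cl4 tumors. Mmp9 made up much of it, with medians of 1383 and 1324. S100a8 had medians of 262 and 29.1, and Clec4d of 52 and 252. Of 10 macrophage markers, 0 were higher and 9 lower, with sums between 6495 and 35018 in 4T1 and between 27585 and 50953 in 66cl4 tumors. Of 9 T-cell markers, 8 were higher and 0 lower, with sums between 687 and 4099 in 4T1 and between 282 and 500.3 in 66cl4 tumors. Thy1 made up much of the T-cell sum, with medians of 1015 and 192 beside summed medians of 1651 and 371. All 8 mammary epithelial markers were higher, with sums between 15439.9 and 58146 and between 3399 and 6158. No marker of these 4 lists was at 0 in all tumors of a model. Of 7 NK-cell markers, 5 were higher and 2 lower, and all 6 skeletal muscle and all 6 adipocyte markers were higher in 4T1. Of 8 fibroblast markers, 4 were higher and 2 lower. Their sums were between 4348 and 175300 normalized counts in 4T1 and between 7905 and 18748 in 66cl4 tumors. Of 6 endothelial markers, 4 were higher and 0 lower. The part of these cell types in the differences of the 10 genes was not tested.

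Next, each treated group was compared with the untreated tumors of its model. The 3 comparisons of a model share these untreated tumors. With limma, 0 genes of all 14318 passed the adjusted threshold in any of the 6 comparisons, so that none of the 10 genes was called, and with limma-voom it was also 0. Genes with an unadjusted p under 0.05 are described below, beside the share of all genes that reached it.
In 4T1 tumors with anti-PD-1, 2 of the 10 genes did, against 8.89% of all genes (1273). Il1r2 was at 113, 100.1, 74.7 and 74.7 normalized counts without treatment and at 29.6, 76.3, 32, 29.9 and 36.7 in anti-PD-1-treated tumors 1 to 5. Of the treated tumors, 4 lay below all untreated tumors and tumor 2 lay among them, and the difference was -0.51 (standard error 0.212, unadjusted p = 0.0261, adjusted p = 0.531, limma). It passed the adjusted threshold with weights for each tumor (-0.60, adjusted p = 0.0362, limma), a setting that called many more genes of the whole table, as given below. Over all alternatives, the unadjusted p of Il1r2 rose to at most 0.0697 (limma). Tnf was at 22.5, 17.2, 8.2 and 30.1 normalized counts in untreated and at 32.1, 38.8, 32, 29 and 40.5 in anti-PD-1-treated tumors. Here 4 of 5 treated tumors lay above all untreated tumors, and the difference was 0.26 (standard error 0.103, unadjusted p = 0.0198, adjusted p = 0.522, limma). The other 8 genes differed by -0.23 to 0.72, the latter for Il18r1. Without anti-PD-1 tumor 2, 80 genes of all 14318 were called in this comparison and none of them was one of the 10. Of 9 T-cell markers, 7 were higher at an unadjusted p under 0.05 (limma) and 0 lower, and their sums were between 822 and 2444 normalized counts in untreated and between 1651 and 4099 in anti-PD-1-treated 4T1 tumors. Of 6 adipocyte markers, 5 were higher at this p, with sums between 178 and 714 and between 49.5 and 8908, and so were 3 of 3 B-cell markers, with sums between 7.09 and 47.2 and between 8.03 and 448. The part of these cell types in the differences was not tested.
In the 4T1-based model, chitin alone or combined with anti-PD-1 left 0 of the 10 genes at an unadjusted p under 0.05, against 2.77% and 2.56% of all genes (397 and 367), and the differences ran from -0.21 to 0.094 and from -0.14 to 0.65.

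In the chitin + anti-PD-1 group of the 4T1-based model, the mean was set by 1 tumor for several genes. Il1b was at 2389.8, 735, 298, 523 and 892 normalized counts in tumors 1 to 5, Il1a at 947, 247, 97.3, 106 and 203 and Il1rn at 692, 404, 201, 179 and 334. Tumor 1 was the highest of all 39 tumors for each of these 3 genes and for Il1r2, at 170.1 normalized counts. The differences from untreated tumors were 0.65 for Il1a and 0.43 for Il1b, and without tumor 1 they were 0.25 and 0.059. In the anti-PD-1 group, tumor 2 was the highest for Il1a (310.5), Il1b, Il1rn and Tnfaip3. The summed neutrophil markers of chitin + anti-PD-1 tumors ran from 3005 to 10946 normalized counts and those of untreated 4T1 tumors from 1927 to 4777. Their part in the values of these genes was not tested.

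In 66cl4 tumors with anti-PD-1, 0 of the 10 genes reached an unadjusted p under 0.05, against 5.36% of all genes (767), and the differences ran from -0.095 to 0.17. With chitin, 2 genes did, against 11.4% of all genes (1639). Il1b was at 103, 72.2, 67.7, 162 and 120.1 normalized counts in untreated and at 148, 149.8, 241, 169.7 and 132 in chitin-treated tumors. Of the treated tumors, 2 lay above all untreated tumors, and the difference was 0.40 (standard error 0.158, unadjusted p = 0.0186, adjusted p = 0.327, limma). Il18r1 was at 16.3, 26.4, 5.28, 16.7 and 24 in untreated and at 42.5, 25.8, 13.1, 40.6 and 50.5 in chitin-treated tumors, with 3 of 5 above all untreated tumors and a difference of 0.28 (standard error 0.103, unadjusted p = 0.0135, adjusted p = 0.293, limma). Macrophage markers moved with chitin, with 6 of 10 higher at an unadjusted p under 0.05 (limma) and 0 lower, and their sums were between 27585 and 40476 normalized counts in untreated and between 40490.2 and 47324 in chitin-treated 66cl4 tumors. Of 9 T-cell markers, 3 were higher at this p and 0 lower, with sums between 282 and 428 and between 365 and 491. The part of these cell types in the differences was not tested. Over all genes, 25 were called without 66cl4 untreated tumor 3, none of them one of the 10.
With chitin + anti-PD-1, 4 of the 10 genes had an unadjusted p under 0.05, against 10.6% of all genes (1516). Tnf was at 23.8, 22.9, 23.7, 20.6 and 13.3 normalized counts in untreated and at 35.3, 26.1, 34.4, 34.5 and 39.8 in chitin + anti-PD-1-treated tumors. All 5 treated tumors lay above all untreated tumors, as for 1.1% of all genes, and the difference was 0.22 (standard error 0.0674, unadjusted p = 0.00455, adjusted p = 0.314, limma). Tnfaip3 was at 342, 271, 236, 255 and 296 in untreated and at 226, 222, 166, 224 and 219 in treated tumors. All 5 treated tumors lay below all untreated tumors, as for 1.03% of all genes (2.12% in either direction), with a difference of -0.28 (standard error 0.0864, unadjusted p = 0.00441, adjusted p = 0.311, limma). Il1b differed by 0.35 (standard error 0.158, unadjusted p = 0.0394, adjusted p = 0.451, limma) and Il18 by 0.13 (standard error 0.0578, unadjusted p = 0.0336, adjusted p = 0.438, limma), and for Il18, 4 of 5 treated tumors lay above all untreated tumors. The other 6 genes differed by -0.29 to 0.17. Of 10 macrophage markers, 7 were higher at an unadjusted p under 0.05 (limma) and 0 lower, with sums between 41292 and 50953 normalized counts in these treated tumors, and their part in the differences was not tested.

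**Figure D4:**
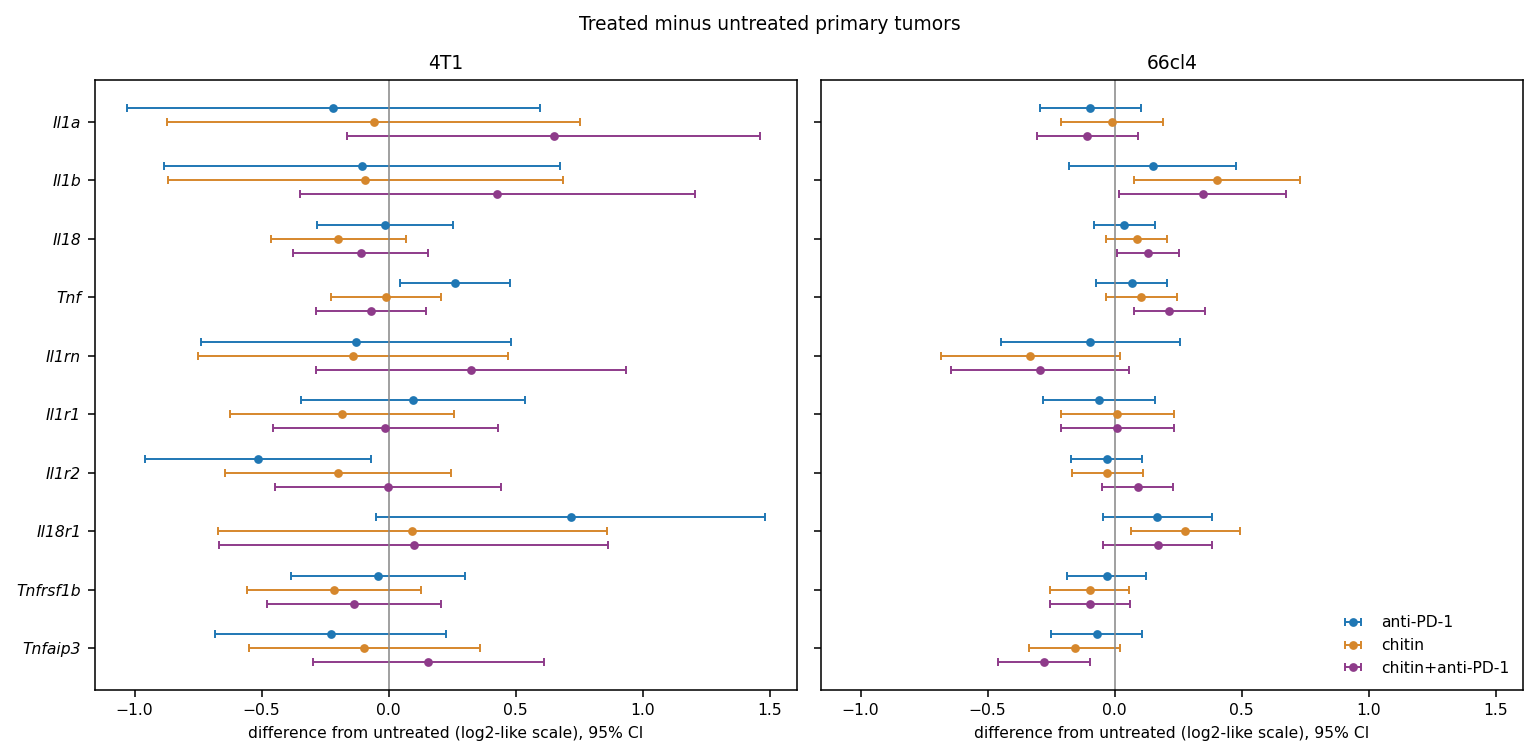
Difference of each treated group from the untreated tumors of the same model on the log2-like scale (x axis), for 4T1 (left) and 66cl4 (right). Points are limma estimates and bars their 95% confidence intervals, not adjusted for the number of genes. The intervals are wider in 4T1 than in 66cl4, and those that leave out 0 belong to Tnf and Il1r2 with anti-PD-1 in 4T1, Il1b and Il18r1 with chitin in 66cl4, and Il1b, Il18, Tnf and Tnfaip3 with chitin + anti-PD-1 in 66cl4.

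The 2 chitin-containing groups of each model were also compared with its 2 other groups, which uses the same tumors again. In 4T1 tumors, Tnf was the 1 gene of the 10 with an unadjusted p under 0.05, against 7.28% of all genes (1042), and it differed by -0.17 (standard error 0.0707, unadjusted p = 0.0255, adjusted p = 0.638, limma). The untreated and anti-PD-1-treated tumors were between 8.20 and 40.5 normalized counts and the chitin-containing groups between 6.64 and 32.4. The anti-PD-1 group had the highest mean, at 34.5 normalized counts against 19.5 in untreated tumors, and chitin alone differed from untreated tumors by -0.0112 (unadjusted p = 0.914, limma). In the comparison of chitin-containing with other groups, 8 of 9 T-cell and 7 of 10 macrophage markers were lower at an unadjusted p under 0.05 (limma) and 0 higher, and their part in the difference of Tnf was not tested. The other genes of the 10 differed by -0.26 (Il18r1) to 0.41 (Il1a) in this comparison.
In 66cl4 tumors, 5 of the 10 genes had an unadjusted p under 0.05, against 15.6% of all genes (2238), while 0 genes passed the adjusted threshold. Tnfaip3 differed by -0.18 (standard error 0.0611, unadjusted p = 0.00743, adjusted p = 0.174, limma) and Il1rn by -0.26 (standard error 0.119, unadjusted p = 0.038, adjusted p = 0.292, limma). Il1b differed by 0.30 (standard error 0.111, unadjusted p = 0.0139, adjusted p = 0.207, limma), Tnf by 0.13 (standard error 0.0477, unadjusted p = 0.015, adjusted p = 0.212, limma) and Il18 by 0.09 (standard error 0.0409, unadjusted p = 0.0398, adjusted p = 0.296, limma). The differences of the remaining 5 genes, whose unadjusted p was above 0.05, ran from -0.082 for Tnfrsf1b to 0.14 for Il18r1, with -0.0107 for Il1a and 0.0461 for Il1r2. For Tnf, 5 of the 10 tumors of the chitin-containing groups lay above all others, and for the other 4 genes at most 1 did so in the direction of the difference. The median ratio of Il1b to Il1rn per length was 1.07 in untreated, 1.54 in anti-PD-1-, 2.27 in chitin- and 2.13 in chitin + anti-PD-1-treated 66cl4 tumors, and the ranges overlapped. The 66cl4 tumors of the chitin-containing groups were also sequenced more deeply, with a median of 9629542 reads against 6125469 in the other groups. At equal read depth, the unadjusted p was 0.0647 for Il18 and between 0.00497 and 0.0376 for the other 4 genes (limma).

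Whether the effect of chitin differed between the models was tested with the difference (4T1 minus 66cl4) between their differences of chitin-containing from other groups. Over all genes, 14 passed the adjusted threshold (0.0978%) and none of them was one of the 10. At an unadjusted p under 0.05, 2 of the 10 genes passed, against 13.2% of all genes. For Tnf the difference between the models was -0.30 (standard error 0.0849, unadjusted p = 0.00122, adjusted p = 0.093, limma), and for Il18 -0.24 (standard error 0.0946, unadjusted p = 0.0173, adjusted p = 0.263, limma). In 4T1, Tnf was at a mean of 34.5 normalized counts with anti-PD-1 and 15.7 with chitin + anti-PD-1. In 66cl4, these means were 24.5 and 34.0. With chitin alone, Tnf differed from untreated tumors by -0.0112 in 4T1 and 0.11 in 66cl4 (unadjusted p = 0.914 and 0.132, limma). A difference between the models for chitin alone was not tested. Tnf passed the adjusted threshold with tumor weights (-0.35, adjusted p = 0.00622, limma) and without 4T1 anti-PD-1 tumor 2 (-0.29, adjusted p = 0.0453, limma). Both settings called many more genes of the whole table. The count over all genes rested on single tumors, with 677 genes called without 4T1 anti-PD-1 tumor 2 and 0 without 4T1 untreated tumor 5. The summed macrophage markers of 4T1 tumors had medians of 20517 and 30191 normalized counts in the untreated and anti-PD-1 groups and of 16311 and 18343 with chitin alone and in combination, and those of 66cl4 tumors had medians of 38096, 40418, 43300.2 and 43509, and their part in this difference was not tested.
For the effect of anti-PD-1, 0 genes differed between the models at an adjusted p under 0.05, and Il1r2 was the 1 gene of the 10 with an unadjusted p under 0.05, at -0.48 (standard error 0.22, unadjusted p = 0.0348, adjusted p = 0.665, limma), against 7.27% of all genes (1041).

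Pooled over the 4 treatment groups, the SD within groups on the log2-like scale was larger in 4T1 than in 66cl4 tumors for all 10 genes, as it was for 91.5% of all genes. It was 0.63 for Il1a in 4T1 against 0.16 in 66cl4, 0.60 against 0.27 for Il1b, 0.59 against 0.17 for Il18r1 and 0.34 against 0.10 for Il1r2, with medians over all genes of 0.19 and 0.11. In single groups this was not always so, and among untreated tumors the SD was smaller in 4T1 for Il1b (0.16 against 0.28) and Il1rn (0.22 against 0.38). Low counts have a flattened spread on this scale, which applies to Il1a, Il1r2, Il18r1 and Tnf in 66cl4 and to Tnf in 4T1 tumors.

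Which of the genes varied together was examined across the tumors of each model after subtracting the mean of each treatment group. Each of the 45 pairs was tested in each model with 100000 permutations within treatment groups (two-sided), adjusted over the 90 tests. In 4T1 tumors, 7 pairs passed the adjusted threshold, and in 66cl4 tumors 0 pairs, where the smallest adjusted p was 0.126.
In 4T1 tumors (n = 19), Il1a and Il1rn varied together with Pearson's r = 0.91 (permutation p = 2.0e-05, adjusted p = 0.0009) and Spearman's rho = 0.91 (permutation p = 2.0e-05, adjusted p = 0.0018), and r was 0.88 (adjusted p = 0.0117) without the 2 tumors farthest from the median of Il1a. Il1a and Il1b had Pearson's r = 0.90 (permutation p = 0.0002, adjusted p = 0.0045) and Spearman's rho = 0.81 (permutation p = 0.00041, adjusted p = 0.0108). Without the 2 farthest tumors, r was 0.77 (adjusted permutation p = 0.0576), and the call was lost at this smaller number of tumors. Il1b and Il1rn had Pearson's r = 0.82 (permutation p = 0.00068, adjusted p = 0.00874) and Spearman's rho = 0.77 (permutation p = 0.00114, adjusted p = 0.0205). This call was also lost without the 2 farthest tumors, at r = 0.76 (adjusted permutation p = 0.0576). Il1rn and Tnfaip3 had Pearson's r = 0.83 (permutation p = 0.00046, adjusted p = 0.0069) and Spearman's rho = 0.77 (permutation p = 0.00171, adjusted p = 0.0256), and r was 0.83 (adjusted p = 0.0255) without the farthest tumors. Tnfaip3 did not pass with Il1a (r = 0.69, adjusted permutation p = 0.0827) or with Il1b (r = 0.61, adjusted permutation p = 0.188).
Il1r1 varied in the opposite direction. With Il1rn it had Pearson's r = -0.85 (permutation p = 2.0e-05, adjusted p = 0.0009) and Spearman's rho = -0.87 (permutation p = 4.0e-05, adjusted p = 0.0018), and r was -0.82 (adjusted p = 0.0063) without the farthest tumors. With Il1a it had Pearson's r = -0.70 (permutation p = 9.0e-05, adjusted p = 0.0027) and Spearman's rho = -0.75 (permutation p = 0.00048, adjusted p = 0.0108), and with Tnfaip3 Pearson's r = -0.78 (permutation p = 0.00041, adjusted p = 0.0069) and Spearman's rho = -0.73 (permutation p = 0.00248, adjusted p = 0.0319). These last pairs were at -0.63 (adjusted p = 0.0537) and -0.65 (adjusted p = 0.059) without the farthest tumors. Thus 3 of the 7 pairs passed without the farthest tumors in the same model. In 66cl4 tumors (n = 20), the same 7 pairs had r of 0.30, 0.36, 0.30, 0.41, -0.21, -0.58 and -0.27 in the order given, with the same signs, and whether they differ between the models was not tested.

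**Figure D5:**
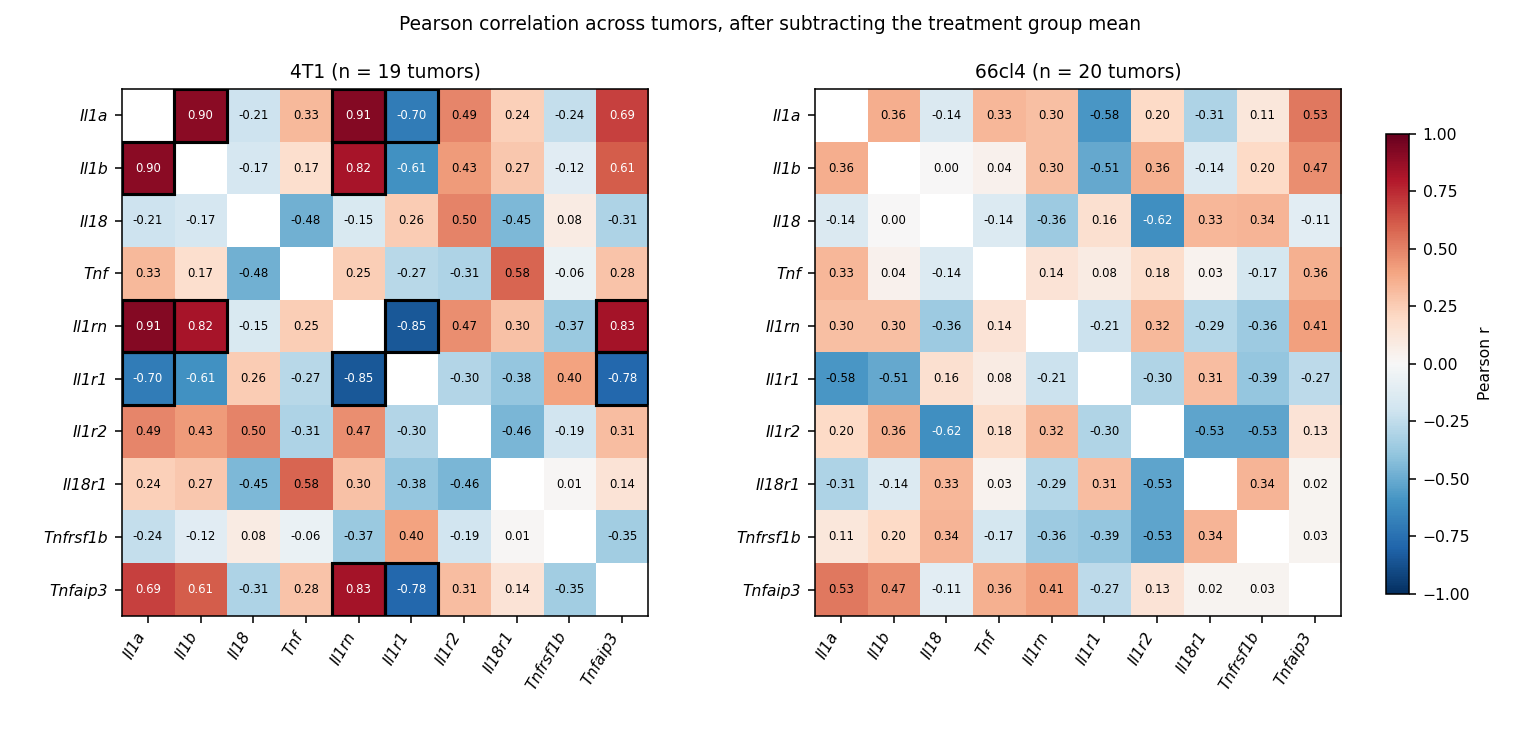
Pearson's r between each pair of the 10 genes across 4T1 (left, n = 19) and 66cl4 tumors (right, n = 20), after subtracting treatment group means on the log2-like scale. Colors and printed values give r, and black frames mark the pairs with an adjusted permutation p under 0.05, which are 7 in 4T1 and 0 in 66cl4.

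In the same way, each gene was set against the mean of 5 lists of cell-type markers (50 tests in each model, adjusted over 100). In 4T1 tumors, 1 passed, between T-cell markers and Il1r2, with Pearson's r = -0.76 (permutation p = 0.00041, adjusted p = 0.041) and Spearman's rho = -0.74 (permutation p = 0.00131, adjusted p = 0.0655), and it was -0.79 (adjusted p = 0.0717) without the 2 farthest tumors. The next smallest p was between macrophage markers and Il1r2, with Pearson's r = -0.75 (permutation p = 0.00211, adjusted p = 0.0857) and Spearman's rho = -0.60 (permutation p = 0.0202, adjusted p = 0.201), and r was -0.63 (adjusted p = 0.365) without the farthest tumors. The macrophage markers had Pearson's r of -0.71 with Il1a, -0.65 with Il1rn and -0.52 with Il1b (adjusted permutation p = 0.116, 0.115 and 0.284). Il1b and the neutrophil markers had Pearson's r = 0.77 (permutation p = 0.0087, adjusted p = 0.115) and Spearman's rho = 0.67 (permutation p = 0.0114, adjusted p = 0.163), and r was 0.67 (adjusted p = 0.186) without the farthest tumors. Il18r1 and the T-cell markers had Pearson's r = 0.67 (permutation p = 0.00696, adjusted p = 0.115) and Spearman's rho = 0.66 (permutation p = 0.00662, adjusted p = 0.157), and r was 0.59 (adjusted p = 0.238) without them. In 66cl4 tumors 0 passed, and the largest r among these lists was between macrophage markers and Tnfrsf1b, with Pearson's r = 0.69 (permutation p = 0.00367, adjusted p = 0.0917) and Spearman's rho = 0.74 (permutation p = 0.00073, adjusted p = 0.0655), and r was 0.67 (adjusted p = 0.042) without the farthest tumors.

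Finally, the 3 genes with the most similar pattern were named for each of the 10 genes, by Pearson's r of deviations from the 8 group means over all 39 tumors. They were picked as the highest of all genes and are given with no test. For Il1a these were Gm14023 (0.91), which overlaps it on the opposite strand, Rhov (0.84) and Zfand2a (0.83). For Il1b they were Il1a (0.83), Gm14023 (0.80) and Osm (0.73), which encodes oncostatin M. For Il1rn they were Actg1 (0.84), Tpm4 (0.83) and Ipo5 (0.81), of which Actg1 and Tpm4 encode a cytoplasmic actin and a tropomyosin. The genes most like Tnfaip3 were Mirt1 (0.79), Furin (0.77) and Ptgs2 (0.76), the latter encoding cyclooxygenase-2.
Those most like Il18r1 were Ly6c1 (0.83), Ctsw (0.79) and Ccl5 (0.77), which encode a surface antigen of lymphocytes and monocytes, a protease of cytotoxic lymphocytes and a chemokine. Those most like Tnf were Socs1 (0.68), Rmdn3 (0.64) and Lap3 (0.64). For Il1r1 they were Syt13 (0.81), Nrbp2 (0.78) and Mmp28 (0.76), and for its decoy Il1r2 Ppp2cb (0.85), Sfxn3 (0.84) and Wdr36 (0.81). Those most like Il18 were 2610008E11Rik (0.74), Nbr1 (0.71) and Crebrf (0.68), and those most like Tnfrsf1b were Col4a5 (0.85), Vsir (0.79) and Rasgef1b (0.78). Each of these r was higher within 4T1 than within 66cl4 tumors. For Il1a and Gm14023, r was 0.96 within 4T1 and 0.42 within 66cl4 tumors, and for Tnf and Rmdn3 it was 0.91 and -0.062. For Tnfaip3 and Ptgs2 it was 0.77 in both, when rounded.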

How the data were processed

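Primary tumors were profiled by stranded RNA-sequencing (paired reads of 150 bases). The authors aligned reads to mm10 with HISAT2, counted them per gene with strand, kept genes above a minimum count in at least 10% of cases and removed untreated 4T1 tumor 3. The deposited table holds their log2 values after the variance stabilizing transformation of DESeq2, in 1 column per tumor. The transformation was inverted, and 100% of values gave whole reads within 0.01 reads.

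Groups were compared on the deposited log2 scale with limma 3.58.1 (R 4.3.3, moderated with a mean-variance trend) over all 14318 genes with Benjamini-Hochberg adjustment and a threshold of 0.05. Treatments were fitted over the 4 groups of a model, and models over all 8 groups. The fit over all 8 groups shares a single spread per gene between the models, although the SD was larger in 4T1 for most genes. The fits were also run on simulated data with independent noise and a single spread per gene. These data lack the unequal spread of the models and the outlying tumors, and no result here rests on them. The 10 genes and all lists were chosen with earlier results of these data known. All 10 genes are named for the models. For treatments, those with an unadjusted p under 0.05 are given in full and the others by count and range. For each pathway list, up to 3 genes with the smallest p were open to naming. Correlations used scipy 1.17.1, and promoters are RefSeq windows of GRCm38.p6 that run from 250 bases before to 50 bases after a start, of which the bases before the start were read. The alternatives were other normalizations, filters, weights, blocks and depths, limma-voom on the recovered reads, and leaving out each tumor. Sequencing batches are not given in the sources used here.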

Additional observations from a re-analysis of the deposited data

Results flagged for a closer look

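In 80 sets of 1 gene in 1 group, 4 single tumors stood apart from the others by Dixon's test, where chance gives about 1 in 20 sets. Il1a in 66cl4 untreated tumor 2 was lowest at 6.88 normalized counts (6 reads), with the others between 14.7 and 18.0. Il1r2 in 4T1 anti-PD-1 tumor 2 was highest at 76.3, with the others between 29.6 and 36.7. Tnf in 66cl4 untreated tumor 5 was lowest at 13.3, with the others between 20.6 and 23.8. Tnfaip3 in 66cl4 chitin + anti-PD-1 tumor 3 was lowest at 166, with the others between 219 and 226.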

How the results depend on the processing

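The differences between the models of Il1a, Il1b, Il1r1, Il1r2 and Tnfaip3, and that of Il18r1 over the 4 treatments, kept their direction and their call in every alternative run. The weak calls of Il18 and Tnf did not, as given with their values. For genes that did not pass, the sign turned for Il1rn with tumor weights (-0.10) and over single tumors left out (-0.018 to 0.074), for untreated Tnf at equal read depth (0.035) and over single tumors (-0.11 to 0.042), and for untreated Tnfrsf1b at equal read depth (0.015), with the replicate block (0.023) and over single tumors (-0.096 to 0.092). Il18 was at -0.0074 after quantile normalization. Among the treatment differences, the unadjusted p (limma) also rose in some alternatives. With anti-PD-1 in 4T1 it reached 0.0697 for Il1r2 and 0.126 for Tnf. With chitin in 66cl4 it reached 0.157 for Il1b and 0.291 for Il18r1. With chitin + anti-PD-1 in 66cl4 it reached 0.222 for Il1b, 0.166 for Il18 and 0.0914 for Tnfaip3, and 0.018 for Tnf. The causes were not tested.

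Counts of genes called over the whole table moved more. With both models in 1 fit, 60 genes were called for anti-PD-1, 3 for chitin + anti-PD-1 and 58 for the chitin-containing groups in 4T1, and 1 for the chitin-containing groups in 66cl4, in place of 0. This fit shares a single spread per gene between the models, although the SD was larger in 4T1 for 91.5% of all genes. Its counts for 4T1 are therefore not a like-for-like alternative. With tumor weights, the counts were 960 for anti-PD-1 and 297 for the chitin-containing groups in 4T1, 185 for the chitin-containing groups in 66cl4, 1004 for the difference between models in the effect of chitin and 331 in that of anti-PD-1. Quantile normalization gave 39 for the former and a filter on the lowest 25% of genes 8, in place of 14. Without single tumors, counts ran from 0 to 80 for anti-PD-1 and from 0 to 1 for the chitin-containing groups in 4T1, both highest without anti-PD-1 tumor 2. In 66cl4 they ran from 0 to 25 for chitin and from 0 to 269 for the chitin-containing groups, both highest without untreated tumor 3, and from 0 to 3 for chitin + anti-PD-1. They ran from 0 to 677 and from 0 to 86 for the differences between models in the effects of chitin and anti-PD-1, and from 11166 to 11394 and from 7406 to 8217 for the models over 4 treatments and untreated.

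Whether equal tumor numbers mark paired tumors is not given in the sources used here, and correlations of deviations from group means did not settle it. Their medians were -0.017 in 4T1 and 0.026 in 66cl4 for equal numbers, against 0.0040 and -0.014 for different numbers. Same-numbered tumors had correlations of their deviations between -0.39 and 0.45 in 4T1 and between -0.30 and 0.54 in 66cl4, and 3 of 19 and 8 of 20 tumors correlated best with their own number. With the tumor number as a replicate block, 1 gene was called for chitin + anti-PD-1 in 4T1, 2 for chitin, 7 for chitin + anti-PD-1 and 16 for the chitin-containing groups in 66cl4, 176 for the difference between models in the effect of chitin, and 11271 and 7859 between the models. Of the correlated pairs in 4T1, 3 of 7 passed without the 2 farthest tumors, and 1 pair did so in 66cl4, in place of 0. With marker lists, 0 relations passed without them in 4T1 and 1 in 66cl4, and 8 and 1 passed on values without subtraction of group means, in place of 1 and 0. Low reads limit Tnf, Il1a and Il1r2 in 66cl4 and Il18r1.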
